A study of Mus musculus with 2 samples.

Results

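The circadian clock genes followed here are 10 transcripts chosen by symbol: the activators Arntl and Npas2, the repressors Nr1d1, Nr1d2, Per1, Per2, Per3, Ciart and Bhlhe40, and the output factor Dbp. All 10 were found among the 37315 genes counted. RNA came from inguinal white adipose tissue of male C57BL/6 mice, 23 weeks old and obese from a high-fat diet. One library was made from entacapone-treated and one from vehicle-treated mice, so both groups share strain, sex, age and diet. Entacapone is a drug for Parkinson disease that is also known to inhibit the RNA demethylase FTO. The sources used here give neither the dose and length of treatment, nor the hour at which tissue was taken, nor how many mice went into a library. A single library stands for each group, so no replicate error and no test can be given. Every difference below is one between these 2 libraries.

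The clock is a loop of transcription and repression that runs in nearly every cell, fat cells included. BMAL1 (the product of Arntl) pairs with CLOCK or NPAS2 and binds E-box elements, switching on the Per, Cry, Nr1d1, Nr1d2, Ciart, Bhlhe40 and Dbp genes. PER and CRY proteins then block BMAL1, and the REV-ERB receptors made from Nr1d1 and Nr1d2 repress Arntl and Npas2 through elements that the activating ROR receptors also bind. DBP and its relatives TEF and HLF act on D-box elements, where NFIL3 opposes them. In white fat, feeding, glucocorticoids and sympathetic input are known to act on this loop beside the light cycle.

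The promoters are shown because the members are tied to each other through these elements. RefSeq promoter windows (GRCm38.p6, 250 bases before to 50 after an annotated start) matched 8 of the 10 members, in 10 windows. Per2 and Bhlhe40 had no window and were not searched. Both strands were searched for the E-box CACGTG, the core AGGTCA of REV-ERB and ROR elements, the D-box TTANGTAA and the cAMP response element TGACGTCA. Capitals mark the matches, none of which overlapped another in these windows.
Arntl, chr7:113207261-113207560, plus strand: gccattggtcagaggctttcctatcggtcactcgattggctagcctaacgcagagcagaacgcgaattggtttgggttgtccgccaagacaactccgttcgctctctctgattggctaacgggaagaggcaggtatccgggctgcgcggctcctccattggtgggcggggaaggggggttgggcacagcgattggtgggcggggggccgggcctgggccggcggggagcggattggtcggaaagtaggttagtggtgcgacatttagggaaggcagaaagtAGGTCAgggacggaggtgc
Nr1d2, chr14:18239057-18239356, minus strand: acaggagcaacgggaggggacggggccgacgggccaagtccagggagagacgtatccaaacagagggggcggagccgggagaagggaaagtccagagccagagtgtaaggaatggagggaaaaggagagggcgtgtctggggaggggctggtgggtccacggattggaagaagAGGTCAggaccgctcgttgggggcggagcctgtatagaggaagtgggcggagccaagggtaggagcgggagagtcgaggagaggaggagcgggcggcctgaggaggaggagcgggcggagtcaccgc
Per1, chr11:69098699-69098998, plus strand: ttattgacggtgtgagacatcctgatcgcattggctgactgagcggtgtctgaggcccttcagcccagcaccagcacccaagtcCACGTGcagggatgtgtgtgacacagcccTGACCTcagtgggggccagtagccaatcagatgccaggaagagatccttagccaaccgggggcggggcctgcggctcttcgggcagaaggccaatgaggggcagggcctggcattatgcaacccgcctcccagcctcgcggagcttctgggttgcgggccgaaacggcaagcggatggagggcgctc
Per3, chr4:151044616-151044915, minus strand: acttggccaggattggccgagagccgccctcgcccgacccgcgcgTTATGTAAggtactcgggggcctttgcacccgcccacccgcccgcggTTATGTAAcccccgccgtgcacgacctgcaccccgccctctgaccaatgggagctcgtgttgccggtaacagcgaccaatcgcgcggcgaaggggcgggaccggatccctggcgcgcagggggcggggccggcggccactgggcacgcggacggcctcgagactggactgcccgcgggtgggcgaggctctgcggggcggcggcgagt
Ciart, chr3:95882179-95882478, minus strand: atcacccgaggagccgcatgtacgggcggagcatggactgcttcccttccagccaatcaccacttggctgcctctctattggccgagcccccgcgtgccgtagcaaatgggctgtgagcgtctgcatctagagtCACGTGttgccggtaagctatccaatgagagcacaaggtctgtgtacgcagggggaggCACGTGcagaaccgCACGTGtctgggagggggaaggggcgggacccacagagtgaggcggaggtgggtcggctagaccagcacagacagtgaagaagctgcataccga
The E-box was found in windows of 2 members, Ciart with 3 copies (starting 116, 58 and 44 bases before the annotated start) and Per1 with 1 copy 166 bases before it. Per1 also held the AGGTCA core in reverse 137 bases before its start. Nr1d2 held that core 77 bases before its start, and in Arntl it began at base 32 of the transcript. Among the windows searched, that of Per3 alone held D-box letters, in 2 copies starting 205 and 158 bases before its start. No window held the cAMP response element letters. The windows of Npas2, Nr1d1 and Dbp, and another window each of Arntl and Per1, held no match to any of these motifs and are not printed. Over all 32817 promoter windows in the RefSeq table, 7.15% held the E-box letters, 16.3% the AGGTCA letters, 2.32% the D-box letters and 1.79% the cAMP element letters. A match is a stretch of letters and not a measured binding site. Only these exact letters in these windows were searched, so a window without a match does not show that its gene lacks such elements.

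Levels were computed from the deposited read counts as CPM (reads scaled to library size, with TMM factors that rest on the bulk of genes). Counted reads came to 12979673 in the entacapone library, over 18932 genes, and to 13620056 in the vehicle library, over 19166 genes. At least 1 CPM on average was required for a comparison, which 9 members passed. Ratios are entacapone over vehicle and are given with an exact 95% interval from the read counts, which covers counting error only and not variation between mice or preparations. Of 10 fat cell markers, 4 were higher and 5 lower in the entacapone library beyond counting error, with log2 ratios from -0.42 to 0.41 and a median of -0.01. Several marker lists of other cell types differed by more. Summed hepatocyte markers were at 97.0 CPM in the entacapone library and 417 CPM in the vehicle library (12 genes), macrophage markers at 549.9 and 1158 CPM (10 genes), and skeletal muscle markers at 2026 and 1322 CPM (10 genes). Median log2 ratios of other marker lists were -0.74 for fibroblasts and progenitors, 0.95 for mammary and skin epithelium, 0.71 for red blood cells, 0.46 for T cells, 0.12 for B cells and 0.04 for endothelium. No marker in any of these lists was at 0 in either library, and their part in the clock gene differences was not tested. In bulk tissue, fewer cells of a type, less RNA per cell and other sources of such reads cannot be told apart.

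The clock genes did not move as a block. Of the 9 measured, 4 were higher in the entacapone library beyond counting error (Npas2, Per1, Nr1d1 and Arntl), against 20.2% of the 13361 genes compared. Another 3 were lower (Bhlhe40, Dbp and Per3), against 21.1% of all genes, and Per2 and Nr1d2 lay within counting error. Those shares, quoted here and below, cover genes down to 1 CPM, whereas the 9 members had means from 9.78 CPM (Dbp) to 115 CPM (Per1). At higher levels smaller differences pass counting error, and the shares among genes of similar level were not computed. Differences of at least 2-fold were seen for 1 member upward, Npas2, and 1 downward, Bhlhe40, against 1.66% and 3.50% of all genes. The median log2 ratio of the 9 was -0.07, beside 0.00 for all genes compared, while their mean was 0.06, of opposite sign. Among the 9980 genes with a mean of 5 to 200 CPM, where all 9 lie, the central 90% of log2 ratios ran from -0.66 to 0.47. Of the 9 members, 3 lay above that range and 2 below it, where by construction 10% of genes lie outside.

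**Figure D1:**
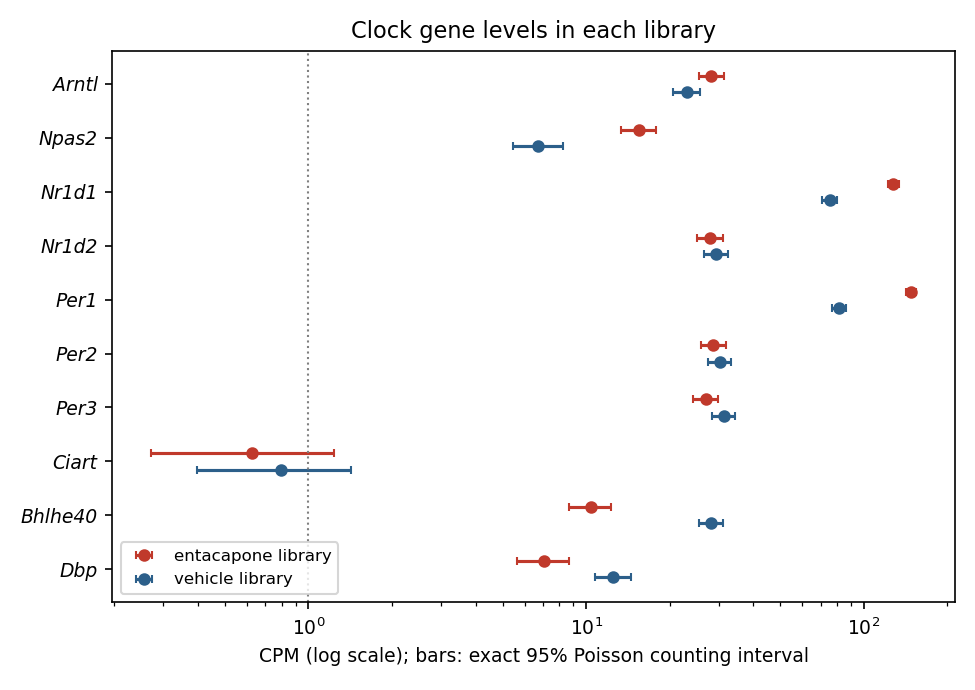
Level of each clock gene in CPM on a log axis, in the entacapone library (red, upper point) and the vehicle library (blue, lower point), with exact 95% Poisson counting intervals; the dotted line is 1 CPM. Nr1d1 and Per1 are the most abundant members by CPM in both libraries, Npas2, Per1 and Nr1d1 stand apart upward in the entacapone library, Bhlhe40 and Dbp downward, and Ciart lies under 1 CPM in both.

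Both activators were higher in the entacapone library, by different amounts. Npas2 (chromosome 1, 39193731 to 39363236, plus strand, GRCm38), a partner of BMAL1 that can stand in for CLOCK, had 198 reads or 15.5 CPM in the entacapone library and 93 reads or 6.73 CPM in the vehicle library. The ratio was 2.30-fold (log2 1.20, 0.84 to 1.57), and 1.14% of genes compared had a higher one. Arntl (chromosome 7, 113207465 to 113314126, plus strand), which encodes BMAL1, the one partner that the loop is known not to run without, had 362 reads or 28.3 CPM against 319 reads or 23.1 CPM. Its ratio of 1.22-fold (log2 0.29, 0.07 to 0.51) was the smallest of the 4 that were higher and lay inside the central range of genes of similar level. Within the entacapone library there were 0.547 Npas2 reads for each Arntl read, against 0.292 in the vehicle library. That quotient differed 1.87-fold (1.39 to 2.53), a comparison that does not depend on how the libraries are scaled. Clock, the usual partner of BMAL1, was at 66.1 CPM in the entacapone library and 59.5 CPM in the vehicle library (log2 0.15, 0.01 to 0.29). Its interval reached 0 under 3 of 5 other scalings.

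The 2 REV-ERB genes parted. Nr1d1 (chromosome 11, 98767932 to 98775333, minus strand), which encodes REV-ERB alpha, had 1637 reads or 127.9 CPM in the entacapone library and 1042 reads or 75.4 CPM in the vehicle library. The ratio was 1.70-fold (log2 0.76, 0.65 to 0.88). Nr1d2 (chromosome 14, 18204054 to 18239127, minus strand), which encodes the related REV-ERB beta, had 358 reads or 28.0 CPM against 407 reads or 29.5 CPM, within counting error (log2 -0.07, -0.28 to 0.13). The entacapone library held 4.57 Nr1d1 reads per Nr1d2 read and the vehicle library 2.56, a 1.79-fold difference (1.51 to 2.11). Exons of Nr1d1 overlap those of Thra, a thyroid hormone receptor gene on the opposite strand, over 263 bases or 8.55% of the Nr1d1 exon sequence. The library kit does not mark strand, so reads there cannot be assigned to one gene. Thra itself was at 104.1 CPM in the entacapone library and 85.1 CPM in the vehicle library (log2 0.29, 0.18 to 0.40).

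**Figure D2:**
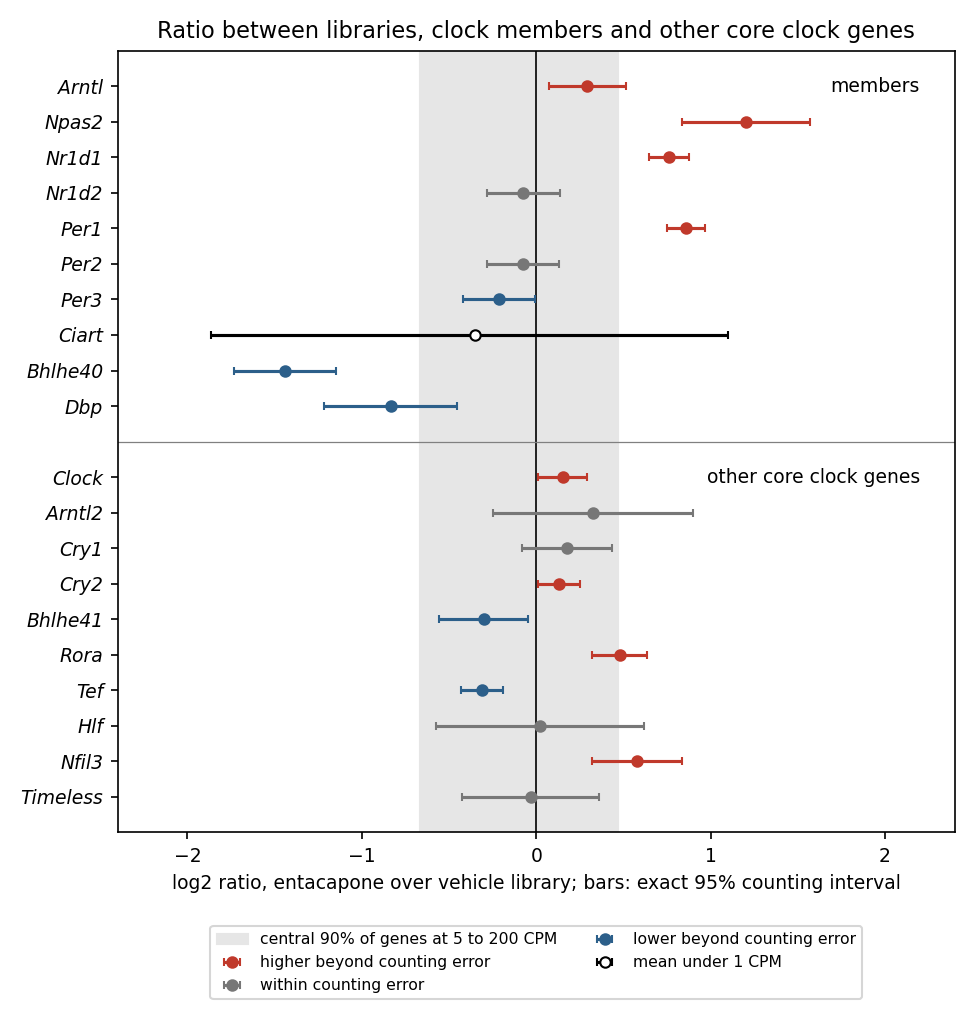
Log2 ratio of entacapone over vehicle for the 10 clock genes (top) and the 10 other core clock genes measured (bottom), with exact 95% counting intervals; grey marks the central 90% of genes at 5 to 200 CPM. Npas2, Per1 and Nr1d1 lie above the grey band and Bhlhe40 and Dbp below it, while Per2 and Nr1d2 sit near 0.

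The 3 Period genes, whose products join CRY proteins to shut off BMAL1, did not share a direction. Per1 (chromosome 11, 69095217 to 69109960, plus strand), the member of the family known to answer quickly to glucocorticoids and cAMP, had 1894 reads or 148 CPM in the entacapone library and 1127 reads or 81.6 CPM in the vehicle library. Its ratio was 1.81-fold (log2 0.86, 0.75 to 0.97). Per2 (chromosome 1, 91415982 to 91459324, minus strand), known as a main carrier of the repressing arm, had 368 reads or 28.8 CPM against 419 reads or 30.3 CPM (log2 -0.08, -0.28 to 0.13). Per3 (chromosome 4, 151003652 to 151044665, minus strand), which is known to be less needed for rhythm than Per1 and Per2, had 345 reads or 27.0 CPM against 432 reads or 31.3 CPM. Its log2 ratio of -0.21 had an interval that barely left 0 (-0.42 to -0.01), and the call was lost with upper-quartile factors, with adipocyte markers as the scale and with a 99% interval. Per1 stood at 5.15 reads per Per2 read in the entacapone library and 2.69 in the vehicle library, a 1.91-fold difference (1.63 to 2.25). Per2 and Per3 kept within counting error of each other between the libraries, with a quotient of 1.10 (0.897 to 1.35).

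The remaining repressors were lower or too sparse to compare. Bhlhe40 (chromosome 6, 108660629 to 108666925, plus strand) encodes DEC1, which competes with BMAL1 for E-boxes and also answers to hypoxia and immune signals. It had 133 reads or 10.4 CPM in the entacapone library and 389 reads or 28.2 CPM in the vehicle library. That is 2.71-fold lower (log2 -1.44, -1.73 to -1.15), and 1.47% of genes compared had a lower ratio. Bhlhe40 is also known to be active in macrophages. Of 10 macrophage markers, 9 were lower beyond counting error, against 21.1% of all genes compared, with a median log2 ratio of -1.06 and a range from -1.58 to -0.11. Fibroblast and progenitor markers (9 of 10) and hepatocyte markers (11 of 11 measured) were also lower, while skeletal muscle (9 of 10) and epithelium markers (7 of 10) were higher. The part of any of these cell types in the Bhlhe40 difference was not tested. An antisense gene, 0610040F04Rik, shares 118 bases or 2.51% of the Bhlhe40 exon sequence and was listed with 0 reads in both libraries. Its paralog Bhlhe41 (DEC2) was at 17.6 CPM in the entacapone library and 21.6 CPM in the vehicle library (log2 -0.30, -0.56 to -0.05). Ciart (chromosome 3, 95878503 to 95882251, minus strand), a repressor of BMAL1 also called CHRONO, had 8 reads against 11, or 0.625 against 0.796 CPM. Its interval spans log2 -1.87 to 1.10, so that only a large difference could have been seen at this depth.

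Dbp (chromosome 7, 45705088 to 45710203, plus strand), an output factor often used as a readout of BMAL1 activity because its rhythm is large, was lower. It had 90 reads or 7.03 CPM in the entacapone library and 173 reads or 12.5 CPM in the vehicle library, 1.78-fold lower (log2 -0.83, -1.22 to -0.46). Exons of Sphk2, a sphingosine kinase gene on the opposite strand, cover 539 bases or 18% of the Dbp exon sequence. Sphk2 was at 40.2 CPM in the entacapone library and 36.6 CPM in the vehicle library (log2 0.13, -0.05 to 0.31). The related factor Tef was also lower, at 76.8 against 95.3 CPM (log2 -0.31, -0.43 to -0.19), and Hlf lay within counting error at 3.75 against 3.69 CPM.

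Per kilobase of exon, which allows levels of different genes to be set side by side, Nr1d1 ranked 1 and Per1 ranked 2 in both libraries. Nr1d1 was at 41.6 CPM per kb in the entacapone and 24.5 CPM per kb in the vehicle library, and Per1 at 26.3 and 14.5 CPM per kb. Each of these stood apart from its neighbours in the order by more than the counting intervals. Below them the order changed. Bhlhe40 ranked 9 in the entacapone library at 2.21 CPM per kb and 3 in the vehicle library at 5.99 CPM per kb, where its interval overlapped that of Nr1d2. Npas2 ranked 6 at 3.23 CPM per kb and overlapped Arntl and Per3 in the entacapone library, whereas in the vehicle library it ranked 9 at 1.41 CPM per kb and stood apart from both neighbours. Arntl was at 3.76 CPM per kb in the entacapone and 3.07 in the vehicle library, at ranks 5 and 8. Exon length here is the union of all annotated transcripts, which can exceed the length of the transcripts actually made.

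**Figure D3:**
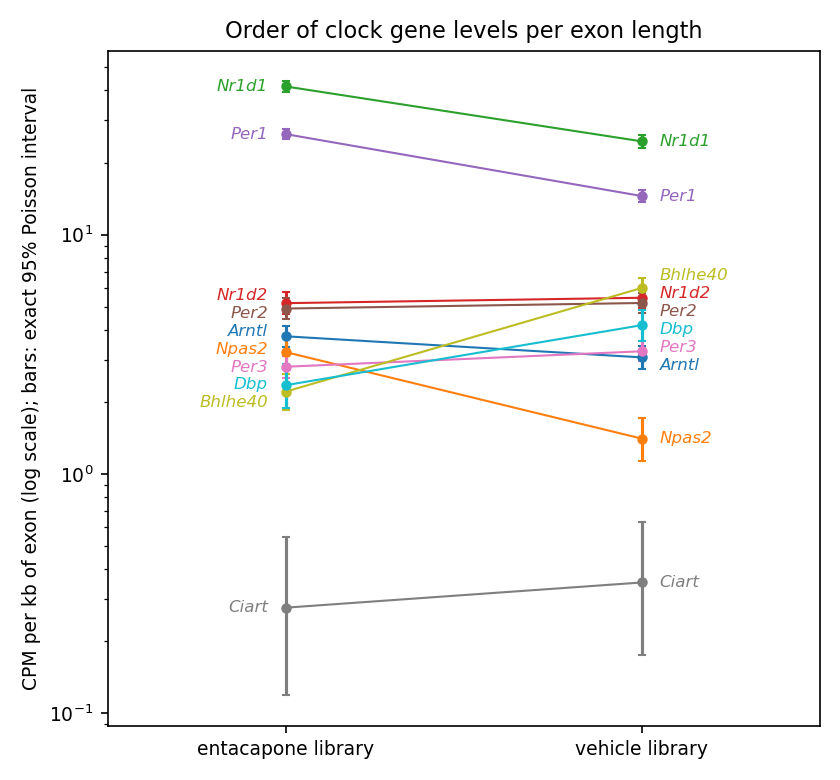
Level of each clock gene in CPM per kb of exon on a log axis, in the entacapone library (left) and the vehicle library (right), joined by lines, with exact 95% Poisson counting intervals. Nr1d1 and Per1 lead on both sides, while the lines of Bhlhe40, Dbp and Npas2 cross those of other members.

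Read quotients between pairs of members restate the same counts in a form that needs no scaling, and are not separate evidence. Of 45 pairs, 32 differed between the libraries beyond counting error. Of the 13 that did not, 8 were pairs with the sparse Ciart. The same share was not computed for pairs of other genes. Pairs within counting error included Per1 with Nr1d1, at 1.16 Per1 reads per Nr1d1 read in the entacapone library and 1.08 in the vehicle library, a quotient of 1.07 (0.96 to 1.19). Per2 with Nr1d2 was another, at 1.028 and 1.029 reads (quotient 0.998, 0.814 to 1.23). Npas2 and Bhlhe40 were farthest apart, at 1.49 Npas2 reads per Bhlhe40 read in the entacapone library and 0.239 in the vehicle library, a 6.21-fold difference (4.49 to 8.65). Npas2 against Dbp differed 4.08-fold (2.83 to 5.93) and Arntl against Dbp 2.18-fold (1.61 to 2.97), with 4.02 Arntl reads per Dbp read in the entacapone and 1.84 in the vehicle library. Arntl against Nr1d1 went the other way, with 0.221 and 0.306 Arntl reads per Nr1d1 read (0.722-fold, 0.608 to 0.859).

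**Figure D4:**
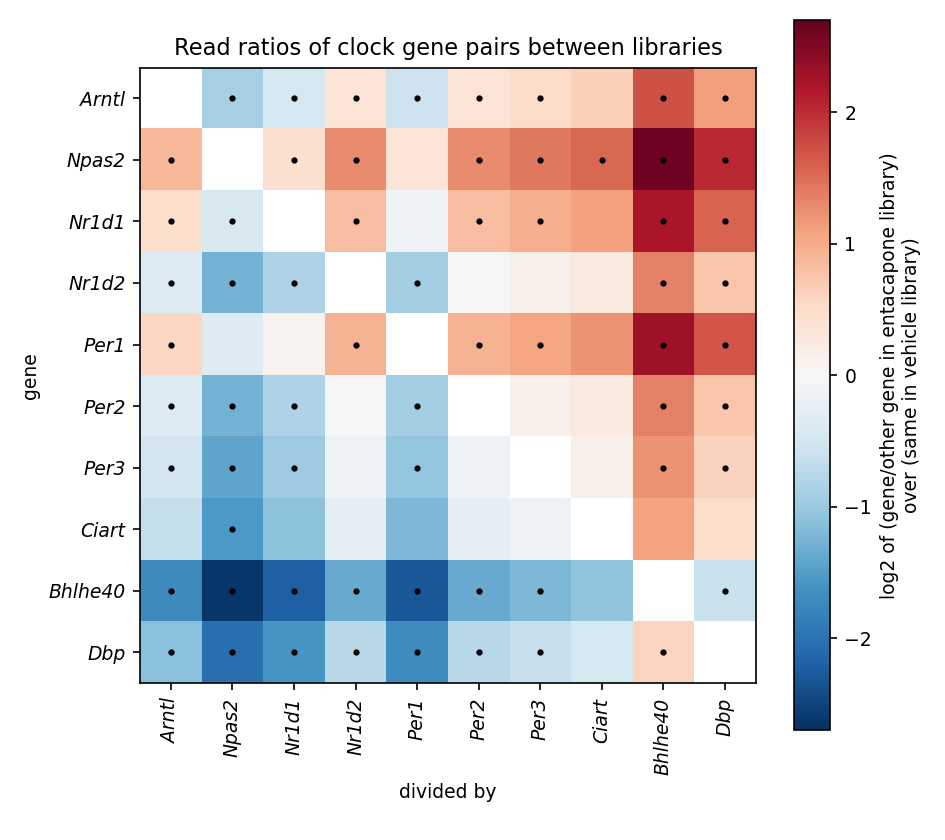
For each pair of clock genes, the log2 of their read ratio (row gene over column gene) in the entacapone library over the same ratio in the vehicle library; dots mark pairs whose exact 95% interval excludes 0. The rows of Npas2, Per1 and Nr1d1 are mostly red (gained on other members) and those of Bhlhe40 and Dbp mostly blue, with 32 of 45 pairs beyond counting error.

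In mouse tissues kept in a light and dark cycle, Arntl and Npas2 are known to peak around the end of the night, Nr1d1 in the day, Dbp soon after it, and Per2 around dusk. Read in that order, Arntl and Npas2 were higher in the entacapone library, Nr1d1 was higher, Dbp was lower and Per2 was within counting error. The other members were not placed in this order. Per1 was higher, Per3 slightly lower, Bhlhe40 lower and Nr1d2 within counting error, and Ciart was too sparse to compare. Arntl and Dbp, known to run in opposite phase, differed in opposite directions. Arntl and Nr1d1, also known to oppose each other, were both higher. Nr1d1 and Dbp, which are known to peak close together, parted 3.02-fold (2.30 to 3.99) in their quotient. One library per treatment at an hour that the sources do not give is a single point on each cycle. A different clock phase, a different amplitude, separate regulation of single members, a different mix of cells and variation between mice or preparations cannot be told apart.

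Other core clock genes also went both ways. Of 11 listed, 10 were measured. Beyond counting error 4 were higher and 2 lower, against 20.2% and 21.1% of all genes compared. None differed by 2-fold, and the list had a median log2 ratio of 0.14. Nfil3, the D-box repressor, was highest at 23.5 CPM in the entacapone library and 15.8 CPM in the vehicle library (log2 0.58, 0.32 to 0.83). Rora, for the activating receptor ROR alpha, followed at 59.3 against 42.6 CPM (log2 0.48, 0.32 to 0.64). Of the cryptochromes, which repress together with the PER proteins, Cry2 was at 88.1 against 80.6 CPM (log2 0.13, 0.01 to 0.25) and Cry1 at 20.2 against 17.8 CPM (log2 0.18, -0.08 to 0.44). The cryptochromes and Clock were named after their values were seen. With DESeq2 factors, total counts or library sizes without mitochondrial and marker genes, Clock and Cry2 were within counting error. That left 2 of the 10 higher beside 2 lower. Tef and Bhlhe41, given above, were the 2 that were lower. Rorb was under 1 CPM.

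For kinases, phosphatases and ubiquitin ligases that act on clock proteins, calls were about as frequent as among all genes (20.2% higher and 21.1% lower). Of 12 measured, 2 were higher and 2 lower beyond counting error, the median log2 ratio was -0.08, and the range ran from -0.47 to 0.25. Csnk2b, a casein kinase subunit, was at 60.7 against 52.8 CPM (log2 0.20, 0.05 to 0.35) and Gsk3b at 52.6 against 60.5 CPM (log2 -0.20, -0.35 to -0.05). Fbxw7 (0.25, -0.05 to 0.54) and Fbxl21 (-0.47, -1.56 to 0.57), the extremes, were within counting error.

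Of 9 clock-controlled outputs, 5 were higher beyond counting error and 2 were lower (median log2 ratio 0.21), against 20.2% and 21.1% of all genes compared. The highest were Tsc22d3 (GILZ), a mediator of glucocorticoid action, at 567 CPM in the entacapone library and 334 CPM in the vehicle library (log2 0.76, 0.71 to 0.81), and Cdkn1a, the cell cycle inhibitor p21, at 313 against 207 CPM (log2 0.60, 0.53 to 0.67). Both are known to answer to signals other than the clock. The lowest were Tef and Bhlhe41, whose values stand above. The lists overlap: Tef, Bhlhe41 and Hlf are also counted among the other core clock genes, and Tsc22d3 among the glucocorticoid-responsive genes below.

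Per1 is known to answer to glucocorticoids and cAMP as well as to the clock, and lists for both responses were examined. Of 10 glucocorticoid-responsive genes, all 10 were higher beyond counting error, 3 of them by 2-fold or more, against 20.2% and 1.66% of all genes compared. Those shares cover genes down to 1 CPM, whereas the lowest mean in this list was 69.0 CPM (Cebpd). At higher levels smaller differences pass counting error, and the list was chosen with earlier results of these data known. Skeletal muscle markers (9 of 10), epithelium markers (7 of 10) and red blood cell markers (5 of 5 measured) were also higher in the same library, and their part was not tested. The median log2 ratio of the glucocorticoid list was 0.77. The metallothionein genes Mt2 (836 against 302 CPM, log2 1.47, 1.42 to 1.52) and Mt1 (1018 against 395.6 CPM, log2 1.36, 1.32 to 1.41), which metals also induce, led with Cebpd (96.3 against 41.7 CPM, log2 1.21, 1.06 to 1.35). Sgk1 (log2 0.36, 0.24 to 0.47) and Pdk4 (0.53, 0.48 to 0.58) were lowest. Of 10 cAMP and immediate early genes, 4 were higher beyond counting error and 1 was lower, against 20.2% and 21.1% of all genes compared. The median log2 ratio there was 0.22. Fosb was at 7.27 CPM in the entacapone library and 1.45 CPM in the vehicle library (log2 2.33, 1.62 to 3.10), Nr4a3 at 2.58 against 1.01 CPM (1.35, 0.41 to 2.36) and Atf3 at 5.24 against 13.5 CPM (-1.36, -1.79 to -0.95). Fos, the next lowest, was within counting error (-0.10, -0.34 to 0.14). The log2 ratio of Per1, 0.86, lay inside the range of the glucocorticoid list (0.36 to 1.47), of the cAMP and immediate early list (-1.36 to 2.33) and of the muscle markers (0.09 to 3.35). The cAMP and immediate early range is wide: only 0.13% of genes compared lay above Fosb and 1.74% below Atf3, its ends. Lying inside that range therefore does not set Per1 apart from most genes. The glucocorticoid range was narrower, with 11.6% of genes compared above its lowest gene, Sgk1, and 0.64% above its highest, Mt2. For the muscle range, 38.1% lay above the lowest marker, Mylpf, and 0.02% above the highest, Myh7. Whether Per1 shares a cause with any of these lists was not tested.

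**Figure D5:**
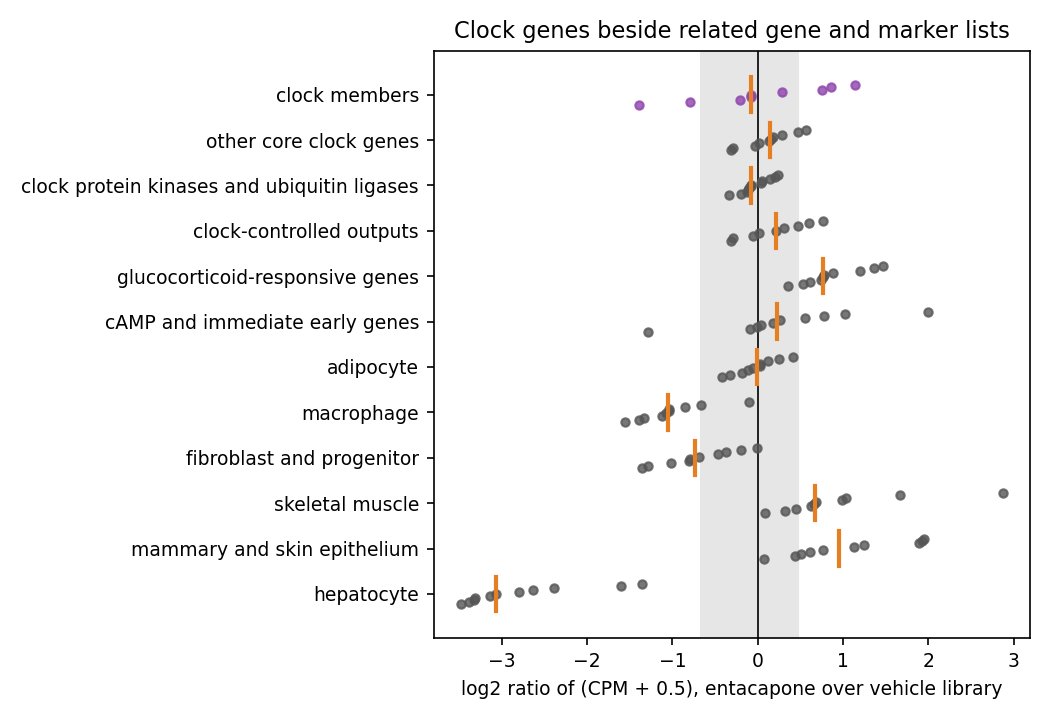
Log2 ratio of entacapone over vehicle, with 0.5 CPM added to each level, for every measured gene of the clock members (purple) and of other gene and marker lists (grey points); orange bars are list medians and the grey band is the central 90% of ratios of genes at 5 to 200 CPM, taken without the added 0.5 CPM. The clock members spread on both sides of 0 around a median of -0.07, while the glucocorticoid-responsive genes all lie to the right with a median of 0.77 and the macrophage markers all to the left with a median of -1.06.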

How the data were processed

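Poly(A) RNA of 1 entacapone and 1 vehicle sample of inguinal white fat was sequenced with an unstranded kit on a HiSeq instrument in reads of 101 bp, per the labels' protocols. The deposited values are raw counts of reads for each Ensembl gene, as the authors left them. TopHat2 2.1.1, HTSeq 0.6.0 and mm10 stand in the submitters' processing notes; annotation release and counting mode are not given there. Of 37315 identifiers, 35449 matched GENCODE M21 (GRCm38, the assembly of mm10).

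CPM used TMM effective library sizes (edgeR 4.0.16, factors 0.986 for entacapone and 1.01 for vehicle). Ratio intervals were derived from Clopper-Pearson limits on the part of each gene's reads that came from the entacapone library (SciPy 1.17.1), level intervals from the Poisson distribution, and pair quotients from the conditional odds ratio. All cover counting error only; reads carry no molecular identifiers. A gene was called where its 95% interval excluded 1 and its mean reached 1 CPM. List medians added 0.5 CPM. Interval code was run on simulated Poisson counts without variation between mice or preparations, which checks the code and not the calls. Alternatives included DESeq2 1.42.0 size factors.

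The members and lists were chosen with earlier results of these data known. All members are named; of other lists, genes at least 2-fold different and the 2 highest and 2 lowest. Some genes that the lists held are not reported here, and counts and medians of the other core clock genes are without them.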

Additional observations from a re-analysis of the deposited data

How the results depend on the processing

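Each changed alone, 5 other scalings, other limits on expression and a 99% interval left all 4 higher members with that call. The same held for Bhlhe40 and Dbp, which were lower. The 5 other scalings shifted log2 ratios by -0.04 to 0.01. For Arntl the 99% interval barely left 0 (log2 0.003 to 0.58). It would reach 0 with DESeq2 factors (shift -0.02), total counts (-0.04) or library sizes without mitochondrial and marker genes (-0.03). With no interval criterion, 5 of the 9 measured members were lower in place of 3. By that rule 6586 of the 13361 genes compared were also lower. At a limit of 1.5-fold, 3 members were higher and 2 lower, in place of 1 and 1. The share of all genes at that limit was not computed. The median log2 ratio of the members was -0.07 and ran from -0.11 (total counts) to -0.06, and their mean was 0.06. For the other core clock genes the median, 0.14, ran from 0.10 to 0.15 and the mean was 0.12. The log2 quotient of Arntl to Dbp between the libraries, 1.12, was 2.03 with Npas2 in place of Arntl. With another gene in place of Dbp it was 1.73 for Bhlhe40, 0.64 for Ciart (-0.83 to 2.18), 0.51 for Per3, 0.37 for Nr1d2 and for Per2, and it took the opposite sign for Nr1d1 (-0.47) and Per1 (-0.57). These values compare different genes, and the cause of their differences was not tested. No paired analysis was possible because each group holds 1 library. Depth limits Ciart most, with 8 and 11 reads. No interval here covers variation between mice, so a repeat with other animals could differ by more than any of them.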
